A study of Homo sapiens with 6 samples.

Results

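The 38 genes described here encode the machinery with which a cell copies its DNA and divides. They were matched by name and make up 38 of the 60623 genes listed for each library. The list uses no measured value as a criterion, but it was drawn up with earlier results of these libraries known. They were sorted by role into 15 replication genes, 4 genes that control the passage from G1 into S phase, and 19 mitotic genes. RNA was sequenced from hepatocyte-like cells, called hepatoblasts in the labels, at day 19 of a differentiation from H9, which is a human embryonic stem cell line. Of the 6 libraries, 3 came from cells exposed to HFPO-TA, hexafluoropropylene oxide trimer acid, a perfluorinated ether acid. The other 3 came from cells given 0.1% DMSO, the vehicle. The labels give the HFPO-TA dose as 10 with a garbled unit, state no exposure time, and record the DMSO share only for the controls. All libraries derive from the same line. No label states that the replicates were separate cultures, so the p-values below measure the spread between libraries, which may be technical.

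A dividing cell first loads the MCM helicase onto DNA with the help of CDC6 and CDT1, then fires the origins with CDC45 and the GINS complex and copies the strands with PCNA as the sliding clamp. Genes of this phase are classic targets of the E2F factors. Later, cyclin A and cyclin B with CDK1 drive entry into mitosis, where the kinases AURKA, AURKB and PLK1, the checkpoint proteins BUB1 and BUB1B and the anaphase-promoting complex with CDC20 and UBE2C part the chromosomes. Many genes of this later phase carry a cell cycle genes homology region, CHR, close to their start and CCAAT boxes upstream of it, and are regulated by the DREAM complex and by MYBL2 with FOXM1. Hepatoblasts of the fetal liver proliferate, whereas mature hepatocytes are mostly quiescent.

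The promoters of the roles differed in these words. RefSeq promoter windows (GRCh38.p14) were matched by symbol for 30 of the 38 genes, using the first listed start of each gene and the 250 bases before it. Not matched were MCM4, MCM5, CCND1, CCNE2, AURKA, BIRC5, UBE2C and FOXM1. An E2F word (TTTCCCGC, TTTCGCGC, TTTGCCGC or TTTGGCGC, either strand) was found in 7 of 13 replication windows (53.85%), in 1 of 15 mitotic windows (6.67%) and in 2.79% of the windows of all 27305 genes in the table. The CHR word TTTGAA, on either strand, was found in 1 of 13 replication windows (7.69%), in 9 of 15 mitotic windows (60.0%) and in 13.57% of all windows. The CCAAT box, on either strand, was found in 9 of 13 replication windows (69.23%), in 14 of 15 mitotic windows (93.33%) and in 33.04% of all windows. E2F words can overlap each other on opposite strands, and words of different kinds overlapped in 1 of the 30 windows, that of MKI67. In MKI67, CCNB2 and PLK1 a CHR word began exactly 29 bases before the start, and in KIF11 it began 28 bases before it. In BUB1B it began at 23 bases and in CENPA at 18, and MKI67 held another at 47. In the others it lay further off, at 65 and 178 bases in CDC20, 151 and 194 in TOP2A, 161 in CDK1 and 199 in RRM1. These distances hold for the RefSeq start used. A match is a description of the letters and not evidence that a factor binds there.

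The windows of 4 genes are shown because they carry the words that set the roles apart. Capitals mark the E2F, CHR and CCAAT words on either strand, and each window is written 5′ to 3′ and ends at the base before the RefSeq start. Of the 30 windows, 24 hold bases of an exon in GENCODE 29, whose starts can lie further upstream, and the windows shown were taken from those with 30 such bases or fewer. Of the replication genes, MCM6 (chr2:135876444-135876693, minus strand) holds 4 E2F matches, which overlap in 2 places, and 2 CCAAT boxes. E2F1 (chr20:33686386-33686635, minus strand), of the G1/S genes, holds 2 E2F matches and 3 CCAAT boxes. Of the mitotic genes, MKI67 (chr10:128126424-128126673, minus strand) holds 2 CHR words and 2 CCAAT boxes, and KIF11 (chr10:92592880-92593129, plus strand) holds 1 of each.
MCM6: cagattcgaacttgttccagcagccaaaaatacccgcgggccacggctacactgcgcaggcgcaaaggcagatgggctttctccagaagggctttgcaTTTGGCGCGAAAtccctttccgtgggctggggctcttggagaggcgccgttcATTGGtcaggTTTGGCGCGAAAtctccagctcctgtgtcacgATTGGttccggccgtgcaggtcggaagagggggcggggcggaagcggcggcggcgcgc
E2F1: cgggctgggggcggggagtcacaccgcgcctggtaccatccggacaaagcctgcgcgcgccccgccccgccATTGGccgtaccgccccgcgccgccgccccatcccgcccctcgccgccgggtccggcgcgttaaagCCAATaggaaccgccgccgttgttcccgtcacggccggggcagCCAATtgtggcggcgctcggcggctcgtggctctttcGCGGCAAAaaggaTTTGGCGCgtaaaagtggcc
MKI67: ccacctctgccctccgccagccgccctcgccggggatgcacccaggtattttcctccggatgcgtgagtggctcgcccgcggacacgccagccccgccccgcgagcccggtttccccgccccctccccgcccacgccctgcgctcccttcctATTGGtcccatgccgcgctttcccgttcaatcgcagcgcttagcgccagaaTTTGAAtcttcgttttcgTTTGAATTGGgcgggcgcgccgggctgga
KIF11: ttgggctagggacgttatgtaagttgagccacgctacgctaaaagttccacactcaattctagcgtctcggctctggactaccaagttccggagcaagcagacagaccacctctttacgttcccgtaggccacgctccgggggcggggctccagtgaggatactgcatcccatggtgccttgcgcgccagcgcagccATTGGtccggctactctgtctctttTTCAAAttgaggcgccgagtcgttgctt

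The cells carried the defining markers of fetal hepatocytes. AFP, the fetal serum protein, stood at 63150 to 66800 TPM in HFPO-TA libraries and 71680 to 79060 TPM in DMSO libraries, and all 14 hepatic markers passed the filter. ALB stood at 54.07 to 73.51 TPM with HFPO-TA and 100.9 to 128.7 TPM with DMSO. HNF4A, a hepatic transcription factor, stood at 37.04 to 39.32 TPM with HFPO-TA and 46.98 to 53.54 TPM with DMSO. Of the pluripotency genes, POU5F1 had 0.19 to 1.75 TPM with HFPO-TA and 0.33 to 0.78 TPM with DMSO, and NANOG and SOX2 stayed below 1 TPM in every library, at no more than 0.14 and 0.74 TPM. The other 7 of the 10 pluripotency markers passed the filter, the highest being PODXL at 29.91 to 59.09 TPM with HFPO-TA and 33.17 to 65.69 TPM with DMSO and TDGF1 at 26 to 32.23 TPM with HFPO-TA and 23.37 to 26.76 TPM with DMSO. Stromal genes were expressed, with COL1A1 at 161.1 to 318.3 TPM with HFPO-TA and 175.5 to 309.6 TPM with DMSO, and COL3A1 at 547.4 to 1191 TPM with HFPO-TA and 696.4 to 1061 TPM with DMSO. Of the 8 endothelial markers 7 passed the filter, with KDR the highest at 22.48 to 46.68 TPM with HFPO-TA and 24.95 to 39.42 TPM with DMSO, PECAM1 at 7.04 to 12.06 TPM with HFPO-TA and 10.16 to 14.42 TPM with DMSO, and CDH5 at 2.44 to 3.46 TPM over all 6 libraries. In such bulk RNA, fewer dividing cells and less transcript per dividing cell cannot be told apart. The library codes carry a letter, not explained in the labels, that sets replicate 1 of each group apart from replicates 2 and 3. HFPO-TA replicate 1 stood apart from the other HFPO-TA libraries for the genes described here, so results are also given within each letter.

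None of the cell cycle genes passed the test for a difference between HFPO-TA and DMSO. A gene was tested where it had at least 1 TPM in 3 or more libraries, and was called changed at an adjusted p under 0.05 in limma across all 15664 genes so tested. Of the 36 genes tested, 0 rose and 0 fell, where 0.492% of all tested genes were called, 0.185% as higher and 0.306% as lower. Before adjustment, 2 of the 36 (MCM5 and CCNB2) were lower at a p under 0.05 in limma and 0 were higher, against 6.56% of all tested genes lower and 5.45% higher. The groups did not overlap for 3 lower genes (MCM5, CCNB1 and AURKB) and for 1 higher gene (BUB1), against 9.40% of all tested genes lower and 8.55% higher, so these shares lay near or below the background. The fold change was below 0 for 27 of the 36, against 51.7% of all tested genes. The median log2 fold change of the 36 was -0.12, and that of all tested genes was -0.01. Among all tested genes 77 were called. Leaving out HFPO-TA replicate 1 gave 296 calls, replicate 2 gave 5 and replicate 3 gave 9. Leaving out DMSO replicate 1 gave 51 calls, replicate 2 gave 14 and replicate 3 gave 7. None of the cell cycle genes was called in any of these 6 fits.

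**Figure D1:**
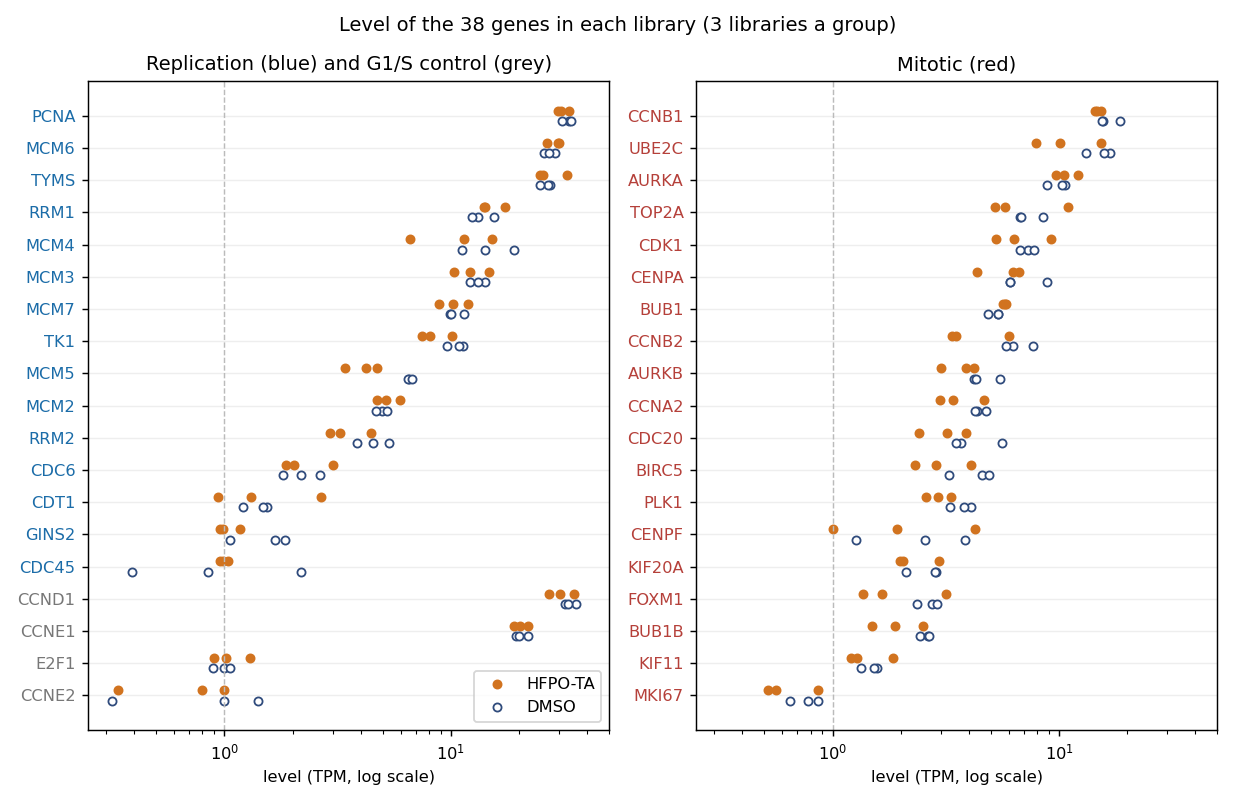
Level of each of the 38 genes in every library, in TPM on a log axis, with filled points for the 3 HFPO-TA libraries, open points for the 3 DMSO libraries and a dashed line at 1 TPM. For MCM5, CCNB1 and AURKB all filled points lie left of the open ones, and for BUB1 they lie right of them.

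TPM is scaled for transcript length, so levels can be compared between genes. The 38 genes together took 0.0312% of all TPM with HFPO-TA and 0.0338% with DMSO, sums of 351.78, 295.19 and 285.7 TPM in HFPO-TA replicates 1, 2 and 3 and of 349.21, 331.43 and 328.07 TPM in DMSO replicates 1, 2 and 3. The highest were PCNA and CCND1, and the lowest was MKI67, the source of the Ki-67 proliferation antigen. MKI67 lay below the filter at 0.86, 0.52 and 0.56 TPM in HFPO-TA replicates 1 to 3 and 0.65, 0.78 and 0.86 TPM in DMSO replicates 1 to 3, and its groups overlapped. CDC45 also lay below the filter and was not tested. The exons of 10 of the 38 genes overlap those of another gene at 1 TPM or more in GENCODE 29, so their values are uncertain to that extent. For MCM2, MCM7, GINS2, TYMS, CCND1, CCNE2, CCNA2, KIF20A and FOXM1 the other gene lies on the opposite strand, and the sources used here do not say whether strand was kept. CENPA shares its strand with the other gene, SLC35F6, at 19.0 TPM with HFPO-TA and 17.6 TPM with DMSO, so strand could not part their reads.

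Among the 6 subunits of the MCM2 to MCM7 helicase, which unwinds DNA ahead of the fork, MCM5 (chromosome 22, 35400063 to 35425430 in GENCODE 29) lay lowest relative to its controls. It stood at 4.2, 3.39 and 4.71 TPM with HFPO-TA and 6.54, 6.45 and 6.7 TPM with DMSO. Every HFPO-TA library lay below every DMSO library, yet the gene did not pass (log2 fold change -0.58, SE 0.14, adjusted p = 0.139). MCM4 had 15.13, 11.42 and 6.57 TPM with HFPO-TA and 18.94, 11.24 and 14.18 TPM with DMSO, and its wide scatter left an interval of -1.14 to 0.28 on the log2 scale. The other 4 subunits stood close to their controls: MCM6 averaged 28.9 ± 1.91 TPM with HFPO-TA and 27.3 ± 1.58 TPM with DMSO, and MCM2 averaged 5.29 ± 0.64 TPM with HFPO-TA and 4.96 ± 0.28 TPM with DMSO (SD, n = 3 each). MCM3 averaged 12.4 ± 2.19 TPM with HFPO-TA and 13.1 ± 1.03 TPM with DMSO, and MCM7 averaged 10.3 ± 1.53 TPM with HFPO-TA and 10.45 ± 0.86 TPM with DMSO. The subunits form a ring of fixed make-up and their levels can be set side by side: MCM6 stood above MCM5 in every library, which is a level and not a change.

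The factors that load and start the helicase were low. CDC6 averaged 2.30 ± 0.61 TPM with HFPO-TA and 2.21 ± 0.42 TPM with DMSO, and CDT1 had 2.66, 0.94 and 1.31 TPM with HFPO-TA and 1.54, 1.21 and 1.48 TPM with DMSO. GINS2, a subunit of the GINS complex, had 1.17, 0.96 and 0.99 TPM with HFPO-TA and 1.68, 1.85 and 1.06 TPM with DMSO. CDC45, its partner in the active helicase, had 0.96, 1.04 and 0.99 TPM with HFPO-TA and 0.39, 0.85 and 2.17 TPM with DMSO. In each of the 4 genes the groups overlapped. PCNA, the clamp that holds the polymerases on DNA, averaged 31.2 ± 1.85 TPM with HFPO-TA and 32.7 ± 1.54 TPM with DMSO (SD, n = 3 each). Its interval was the narrowest of the 36 tested genes, -0.25 to 0.12 on the log2 scale.

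The enzymes that supply deoxynucleotides did not all lie on the same side of their controls. TK1, the thymidine kinase of the salvage route, had 10.12, 7.47 and 8.1 TPM with HFPO-TA and 11.33, 9.58 and 10.81 TPM with DMSO (log2 fold change -0.28, SE 0.14, adjusted p = 0.457). RRM2, the S-phase subunit of ribonucleotide reductase, averaged 3.52 ± 0.79 TPM with HFPO-TA and 4.56 ± 0.76 TPM with DMSO. RRM1, the large subunit of the same enzyme, averaged 15.2 ± 1.93 TPM with HFPO-TA and 13.7 ± 1.63 TPM with DMSO. TYMS, which makes thymidylate, averaged 27.6 ± 4.29 TPM with HFPO-TA and 26.3 ± 1.42 TPM with DMSO (SD, n = 3 each). The groups overlapped for each of the 4 enzymes. RRM1 had the highest log2 fold change of the 14 tested replication genes, 0.14 (interval -0.16 to 0.43), and MCM5 the lowest.

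None of the 4 genes that govern entry into S phase passed the test. CCND1, the cyclin D1 that answers growth signals, averaged 30.7 ± 3.98 TPM with HFPO-TA and 33.5 ± 1.98 TPM with DMSO. CCNE1, a cyclin E that activates CDK2, averaged 20.3 ± 1.45 TPM with HFPO-TA and 20.5 ± 1.35 TPM with DMSO (SD, n = 3 each), with an interval of -0.23 to 0.21 on the log2 scale. Its paralog CCNE2 was near the filter, at 0.8, 0.34 and 1 TPM with HFPO-TA and 0.32, 1 and 1.4 TPM with DMSO. E2F1, the activating factor of the S-phase genes, had 1.3, 0.9 and 1.02 TPM with HFPO-TA and 1, 0.89 and 1.06 TPM with DMSO. The groups overlapped for all 4 genes, and the fold changes farthest from 0 were those of CCND1 and CCNE2, both -0.13 on the log2 scale.

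Of the 18 mitotic genes tested, 16 had a log2 fold change below 0, and none passed. CCNB2, a B-type cyclin that activates CDK1, had 6, 3.49 and 3.35 TPM with HFPO-TA and 7.67, 6.24 and 5.84 TPM with DMSO. HFPO-TA replicate 1 lay within the DMSO range and replicates 2 and 3 lay below it (log2 fold change -0.55, SE 0.21, adjusted p = 0.339). CCNB1, the main mitotic cyclin, had 14.41, 14.74 and 15.37 TPM with HFPO-TA and 15.68, 18.66 and 15.49 TPM with DMSO, lower in every HFPO-TA library by a small margin. CCNA2, which serves S phase and early mitosis, averaged 3.69 ± 0.88 TPM with HFPO-TA and 4.46 ± 0.26 TPM with DMSO. CDK1, the mitotic kinase itself, had 9.23, 6.33 and 5.29 TPM with HFPO-TA and 7.32, 6.73 and 7.76 TPM with DMSO. Its HFPO-TA libraries lay on both sides of the DMSO range.

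Genes of the anaphase-promoting complex showed the same spread. UBE2C, its ubiquitin-conjugating enzyme, had 15.28, 7.91 and 10.13 TPM with HFPO-TA and 16.81, 13.12 and 15.72 TPM with DMSO (log2 fold change -0.46, SE 0.21, adjusted p = 0.449). CDC20, its activator, had 3.87, 3.19 and 2.41 TPM with HFPO-TA and 5.57, 3.7 and 3.51 TPM with DMSO. In both genes HFPO-TA replicates 2 and 3 lay below every DMSO library, and replicate 1 lay within the DMSO range. BIRC5, the survivin subunit of the chromosomal passenger complex, had 4.07, 2.86 and 2.3 TPM with HFPO-TA and 4.55, 3.25 and 4.92 TPM with DMSO. AURKB, the kinase of that complex, had 4.19, 3 and 3.88 TPM with HFPO-TA and 4.21, 5.5 and 4.31 TPM with DMSO. PLK1, which acts from mitotic entry to cytokinesis, averaged 2.94 ± 0.37 TPM with HFPO-TA and 3.73 ± 0.41 TPM with DMSO (SD, n = 3 each).

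The checkpoint kinases BUB1 and BUB1B did not lie on the same side. BUB1 had 5.85, 5.77 and 5.67 TPM with HFPO-TA and 5.38, 5.35 and 4.85 TPM with DMSO, the only mitotic gene higher in every HFPO-TA library (log2 fold change 0.13, SE 0.12, adjusted p = 0.735). BUB1B averaged 1.97 ± 0.51 TPM with HFPO-TA and 2.58 ± 0.13 TPM with DMSO. AURKA, the kinase of the spindle poles, averaged 10.7 ± 1.24 TPM with HFPO-TA and 9.93 ± 0.94 TPM with DMSO. With BUB1 it was the only mitotic gene whose fold change lay above 0. Centromere proteins varied more: CENPA, the histone variant that marks centromeres, averaged 5.74 ± 1.23 TPM with HFPO-TA and 6.99 ± 1.59 TPM with DMSO, while CENPF had 4.24, 1.92 and 1 TPM with HFPO-TA and 1.27, 2.55 and 3.86 TPM with DMSO. CENPF had the widest interval of the 36 genes, -1.06 to 0.82.

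The remaining mitotic genes are a topoisomerase, spindle motors and a transcription factor. TOP2A, which untangles sister chromatids, had 10.91, 5.21 and 5.77 TPM with HFPO-TA and 8.46, 6.7 and 6.77 TPM with DMSO. HFPO-TA replicate 1 was the highest of the 6 libraries and replicates 2 and 3 the lowest. KIF11, the motor that parts the spindle poles, averaged 1.45 ± 0.35 TPM with HFPO-TA and 1.48 ± 0.13 TPM with DMSO, and KIF20A, a motor of the central spindle, averaged 2.33 ± 0.53 TPM with HFPO-TA and 2.59 ± 0.42 TPM with DMSO. FOXM1, the factor that activates many mitotic genes, had 3.16, 1.65 and 1.36 TPM with HFPO-TA and 2.75, 2.37 and 2.9 TPM with DMSO (log2 fold change -0.31, SE 0.23, adjusted p = 0.67). It followed the order seen for TOP2A, with replicate 1 above and replicates 2 and 3 below all DMSO libraries.

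**Figure D2:**
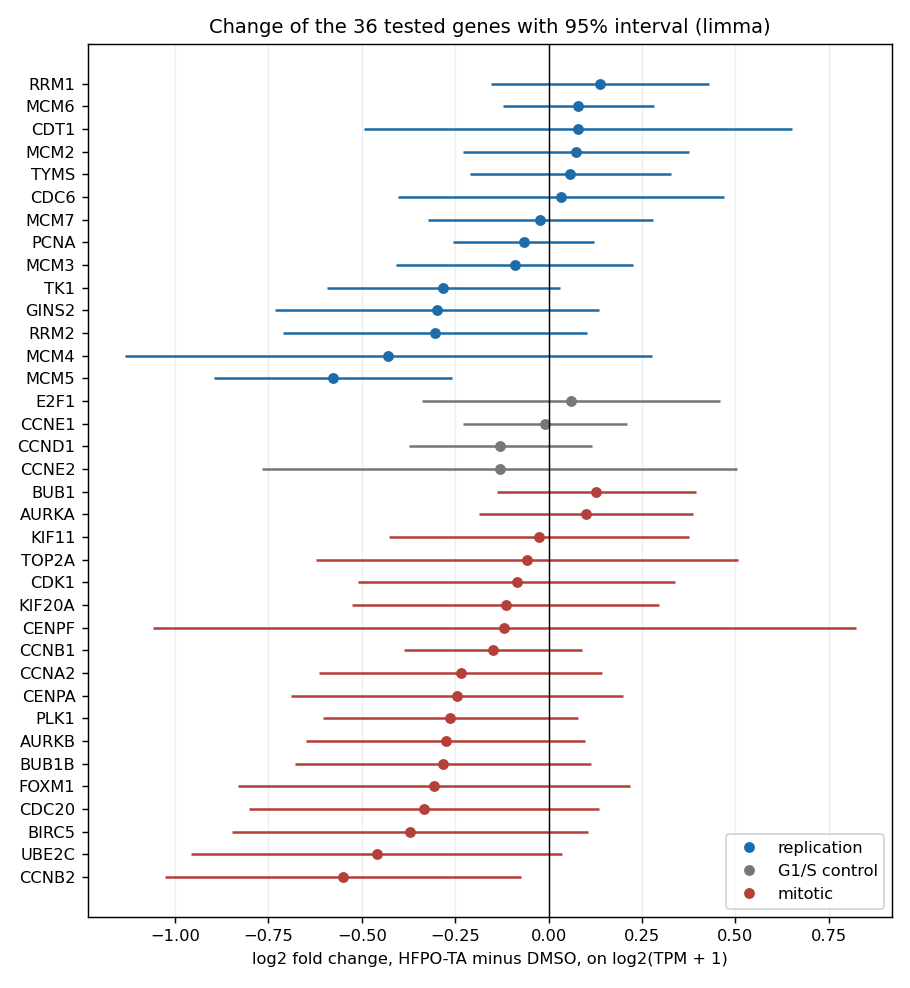
Log2 fold change of the 36 tested genes, HFPO-TA over DMSO from log2(TPM + 1) values, with the 95% interval of the limma fit, ordered within each role. Points of 16 of 18 mitotic genes and 8 of 14 replication genes lie below 0, and the interval leaves out 0 for MCM5 and CCNB2 before adjustment.

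The intervals bound what the data could show. Without adjustment for the number of genes, the 95% interval lay within a 2-fold change in either direction for 33 of the 36 genes, and within a 1.5-fold change for 17. The lower bounds of MCM4, CCNB2 and CENPF lay beyond a 2-fold decrease. These bounds are on the log2(TPM + 1) scale, which understates changes of low genes such as CDT1, E2F1 and KIF11. Of the 36 genes, 20 averaged 5 TPM or more over the 6 libraries.

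HFPO-TA replicate 1 differed from replicates 2 and 3. It was the highest of the 3 HFPO-TA libraries for 16 of 19 mitotic and 11 of 15 replication genes, against 51% of all tested genes. Within the code letter that holds replicates 2 and 3, both HFPO-TA libraries lay below both DMSO libraries for 16 of 19 mitotic genes and 5 of 15 replication genes, where 26.7% of all tested genes did so. Among further genes of the same processes the counts were 21 of 58 mitotic genes (36.2%) and 8 of 45 replication genes (17.8%). For the 19 and the 15 they lay above for 2 mitotic and 2 replication genes, where 23.2% of all tested genes did so. Within the other letter, the replicate 1 pair, HFPO-TA was lower for 10 of 19 mitotic and 5 of 15 replication genes, where 50.4% of all tested genes were lower. The replicate 1 pair has 1 library a group and could not be tested. Genes of a role were read in the same libraries, so these counts are not independent observations. The split by letter was set out after HFPO-TA replicate 1 was seen to stand apart. Without HFPO-TA replicate 1, 10 of the 36 genes were lower at an unadjusted p under 0.05 in limma, against 10.7% of all genes tested in that fit, and 0 were called, the smallest adjusted p being 0.0568 for CCNB2. Without replicate 1 of both groups 6 of 34 tested were lower at that level, against 9.63% of all genes tested in that fit, and 0 were called.

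**Figure D3:**
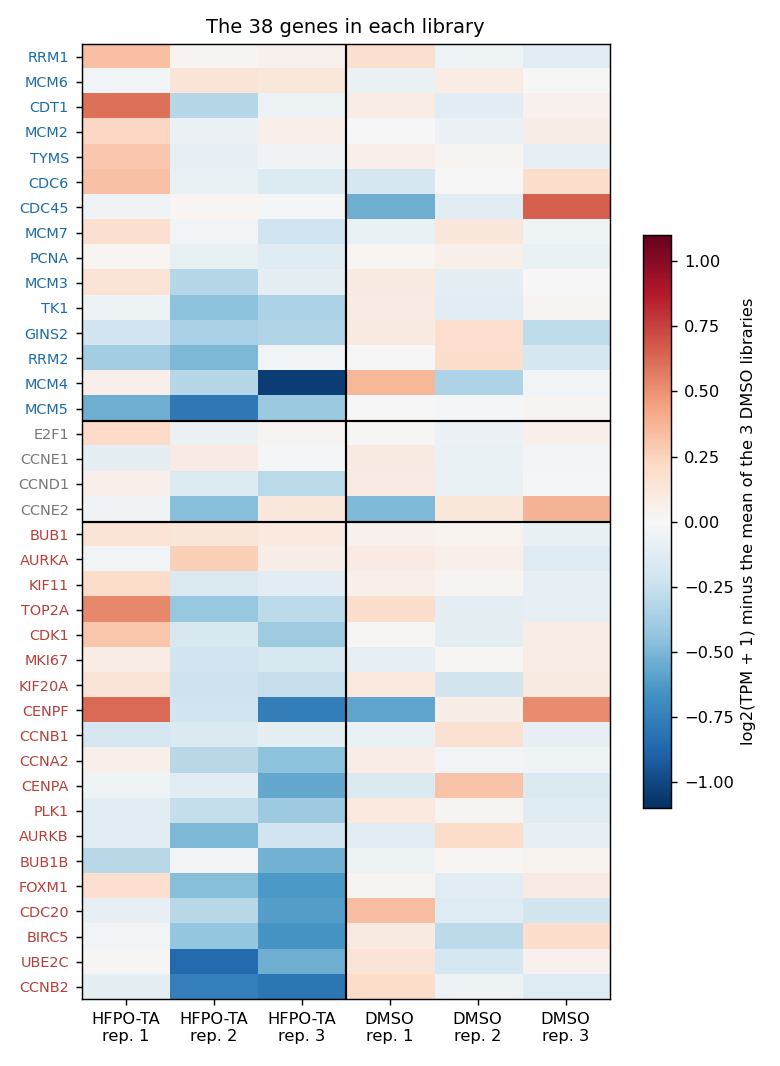
Each of the 38 genes in each library as log2(TPM + 1) minus the mean of the 3 DMSO libraries, with replication genes on top, G1/S control genes in the middle and mitotic genes at the bottom. HFPO-TA replicates 2 and 3 are blue, that is lower, for most mitotic genes, and HFPO-TA replicate 1 is mixed.

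The contrast between replication and mitotic genes differed between the groups by about as much as the HFPO-TA libraries varied among themselves. The mean log2(TPM + 1) of the 15 replication genes was 3.17, 2.89 and 2.93 in HFPO-TA replicates 1, 2 and 3 and 3.11, 3.09 and 3.12 in DMSO replicates 1, 2 and 3. That of the 19 mitotic genes was 2.57, 2.23 and 2.12 with HFPO-TA and 2.53, 2.49 and 2.5 with DMSO. The DMSO libraries lay close together in both roles, and the HFPO-TA libraries did not. The median deviation of all tested genes from the DMSO mean was also highest in replicate 1 of each group. It was 0.05, -0.05 and -0.03 in HFPO-TA replicates 1, 2 and 3 and 0.05, -0.02 and -0.03 in DMSO replicates 1, 2 and 3. In HFPO-TA replicates 1, 2 and 3 it was 0.06, -0.09 and -0.11 over the replication genes and 0.01, -0.23 and -0.40 over the mitotic genes. The difference, replication minus mitotic, was 0.599, 0.664 and 0.809 with HFPO-TA and 0.587, 0.598 and 0.619 with DMSO, so HFPO-TA replicates 2 and 3 lay above every DMSO library and replicate 1 lay among them. Its means were 0.69 ± 0.11 with HFPO-TA and 0.60 ± 0.02 with DMSO (SD, n = 3 each), 0.09 apart. Within the replicate 1 pair the difference between groups was 0.01, and within replicates 2 and 3 it was 0.13. No p is given for these means, since the genes were chosen with results of these libraries known.

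The median log2 fold change was -0.04 over the 14 tested replication genes, -0.07 over the 4 G1/S genes and -0.24 over the 18 tested mitotic genes, against -0.01 over all tested genes. With the genes below the filter included, the medians were -0.02 over 15 replication genes and -0.24 over 19 mitotic genes. Without HFPO-TA replicate 1 the replication median was -0.15 and the mitotic median -0.35. Without HFPO-TA replicate 2 they were 0.0008 and -0.18, and without HFPO-TA replicate 3 they were 0.01 and -0.13. The mitotic median stayed below the replication median in each of these fits. Sorted by promoter word, the 10 genes with a CHR word had a median of -0.17 (9 below 0). The 9 with an E2F word had a median of -0.02 (5 below 0), CENPA being counted in both. This sorting largely repeats the roles, since 9 of the 10 are mitotic and 7 of the 9 are replication genes. The 12 genes with neither word had a median of -0.12 (9 below 0). Of all tested genes 51.7% lay below 0. The 12 include mitotic genes such as CCNA2 and CCNB1, and other forms or places of these words were not scanned. The part of the promoter words in the fold changes was not tested.

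**Figure D4:**
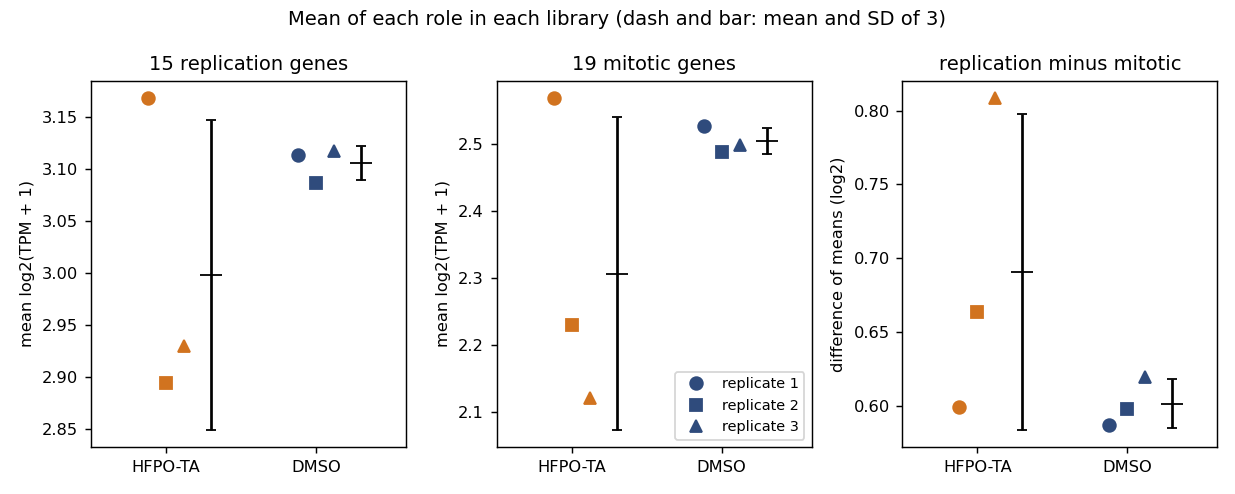
Mean log2(TPM + 1) of the 15 replication genes and of the 19 mitotic genes, and their difference, in each library, with the mean and SD of 3 libraries beside each group. The vertical axes do not start at 0; HFPO-TA replicate 1 lies above the DMSO libraries in the panels of both roles, and HFPO-TA replicates 2 and 3 lie below them.

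The summed stromal, pluripotency and endothelial markers followed the order of the cell cycle genes over the libraries, and the summed hepatic markers did not. Few single pluripotency or endothelial markers kept that order. The summed TPM of 13 stromal markers was 2692, 1452.2 and 1464.07 in HFPO-TA replicates 1, 2 and 3 and 2401.22, 1747.84 and 1958.81 in DMSO replicates 1, 2 and 3. Within replicates 2 and 3, all 13 stromal markers were lower in both HFPO-TA libraries than in both DMSO libraries, against 26.7% of all tested genes. In the replicate 1 pair 4 of 13 were lower, against 50.4% of all tested genes. Over all libraries 0 of the 13 were called and all 13 fold changes lay below 0 (median -0.23), and none of them was at 0 TPM. The summed TPM of 14 hepatic markers was 107638 to 116384 with HFPO-TA and 117677 to 130891 with DMSO, and AFP was its largest member. The only member called was FGB, which fell to 3090 to 3896 TPM with HFPO-TA, against 6105 to 7091 TPM with DMSO. Of the 14 fold changes 9 lay below 0 and 5 above. APOA2 was higher in every HFPO-TA library (7099 to 9126 TPM, against 4518 to 5679 TPM with DMSO), as were 8.55% of all tested genes. The 10 pluripotency markers summed to 130.23, 95.52 and 96.81 TPM in HFPO-TA replicates 1, 2 and 3 and 128.74, 97.7 and 108.51 TPM in DMSO replicates 1, 2 and 3, with 0 of 7 tested members called and NANOG at 0 in 2 DMSO libraries. The 8 endothelial markers summed to 67.69, 49.65 and 53 TPM in HFPO-TA replicates 1, 2 and 3 and 63.86, 57.44 and 58.56 TPM in DMSO replicates 1, 2 and 3, with 0 of 7 tested members called and none at 0. In the stromal, pluripotency and endothelial sums alike, HFPO-TA replicate 1 lay above every DMSO library and HFPO-TA replicates 2 and 3 below every one, the order also seen in the means of the replication and mitotic genes. The largest member was KDR in the endothelial sum (46.68, 24.04 and 22.48 TPM with HFPO-TA) and PODXL in the pluripotency sum. Of the endothelial markers only KDR kept the order, and of the pluripotency markers only L1TD1. PODXL did not, since its HFPO-TA replicate 1 (59.09 TPM) lay below DMSO replicate 1 (65.69 TPM). EMCN was higher in every HFPO-TA library, as were 8.55% of all tested genes. LIN28A and DNMT3B were lower in every HFPO-TA library, as were 9.40% of all tested genes. PECAM1 (7.04, 10.78 and 12.06 TPM) and TDGF1 (26, 32.23 and 31.7 TPM) were lowest in replicate 1 among the HFPO-TA libraries. The part of these cell types in the values of the cell cycle genes was not tested.

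Other genes of DNA replication did not pass the test. Of 45 further genes for origin recognition, polymerases, clamp loading and nucleotide supply, 39 were tested, 0 rose and 0 fell in limma, 0 reached an unadjusted p under 0.05, and the median log2 fold change was 0.02. The smallest p belonged to RPA2, a subunit of the single-strand binding protein RPA, at 33.83, 34.05 and 34.54 TPM with HFPO-TA and 30.66, 31.17 and 31.17 TPM with DMSO. All HFPO-TA libraries of RPA2 lay above the DMSO libraries, by a small margin (log2 fold change 0.14, SE 0.07, adjusted p = 0.498). CHAF1B, a subunit of the histone chaperone CAF-1, averaged 0.73 ± 0.29 TPM with HFPO-TA and 1.32 ± 0.42 TPM with DMSO, and TIPIN, of the fork protection complex, averaged 4.47 ± 1.74 TPM with HFPO-TA and 2.93 ± 0.52 TPM with DMSO (SD, n = 3 each). Neither passed.

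Of 58 further mitotic genes 49 were tested, 1 fell, 0 rose and 48 did not pass, with a median log2 fold change of -0.05. The gene that fell was KIF22 (chromosome 16, 29790719 to 29805385 in GENCODE 29), a chromokinesin that pushes chromosome arms towards the spindle equator. It had 32.41, 30.43 and 29.66 TPM with HFPO-TA and 41.76, 44.42 and 45.82 TPM with DMSO. The groups were well apart, HFPO-TA replicate 1 included (log2 fold change -0.50, SE 0.08, adjusted p = 0.0419). The call held without HFPO-TA replicate 1 and was lost in each of the other 5 fits without a library, with an adjusted p of up to 0.235. CKS2, a small CDK-binding protein, averaged 86.4 ± 4.08 TPM with HFPO-TA and 69.8 ± 9.91 TPM with DMSO, and CENPM, a centromere protein, averaged 1.36 ± 0.29 TPM with HFPO-TA and 2.07 ± 0.23 TPM with DMSO (SD, n = 3 each). Both had groups that did not overlap, and neither passed (adjusted p = 0.2875 for CKS2 and 0.421 for CENPM). The groups did not overlap for 8.55% of all tested genes on the higher side and 9.40% on the lower side.

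Of 34 further regulators of G1, 30 were tested and none passed, with a median log2 fold change of 0.03. An unadjusted p under 0.05 in limma was reached by 3 on the higher side and 2 on the lower side. Over all tested genes the shares were 5.45% higher and 6.56% lower. CDK2, the kinase that cyclin E and cyclin A activate in S phase, had 44.83, 40.94 and 47.17 TPM with HFPO-TA and 58.88, 56.74 and 59.54 TPM with DMSO. Every HFPO-TA library lay below every DMSO library (log2 fold change -0.39, SE 0.08, adjusted p = 0.0811), as for 9.40% of all tested genes. The gene CDK2 was called in 0 of 14 alternative fits. Its exons overlap PMEL on the opposite strand, at 6.59 TPM with HFPO-TA and 5.98 TPM with DMSO. MYCN, a growth-promoting factor, averaged 2.43 ± 1.2 TPM with HFPO-TA and 4.49 ± 0.95 TPM with DMSO, and LIN52, a subunit of the DREAM complex, averaged 10.04 ± 0.96 TPM with HFPO-TA and 7.86 ± 0.87 TPM with DMSO (SD, n = 3 each). The adjusted p was 0.306 for MYCN and 0.361 for LIN52. Chosen after their values were seen, the CDK inhibitors CDKN1C (p57) and CDKN1A (p21) stood at 1272 ± 27.6 and 269 ± 17.1 TPM with HFPO-TA and at 1205 ± 120 and 283 ± 4.93 TPM with DMSO. Both stood above every one of the 38 genes in every library, and neither passed (adjusted p = 0.723 for CDKN1C and 0.694 for CDKN1A).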

How the data were processed

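RNA was sequenced from 3 HFPO-TA and 3 DMSO libraries. The authors deposited 1 value per gene under the header FPKM, and since each column sums to 995690 to 996186 the deposited values were read as TPM. Per the submitters' processing notes, HISAT, Bowtie2, RSEM and the build GRCh38.p13 are listed, without role or version. Depth is unknown, as TPM keeps none, and neither the kit nor its strandedness is stated in the labels.

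The 15664 genes that reached 1 TPM in at least 3 libraries were fitted as log2(TPM + 1) in limma 3.58.1 (R 4.3.3) with treatment as the only term and a trended, robust variance. P-values are 2-sided and Benjamini-Hochberg adjusted over all genes tested. All 38 genes were named, with defining marker genes and, from each of 3 further lists, any called member and the 3 members of smallest p. The genes and lists were chosen with earlier results of these data known. Alternatives covered pseudocount, filter, variance, replicate terms, scaling and left-out libraries. Positions come from GENCODE 29. Figures used matplotlib 3.10.9 in Python 3.11.15.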

Additional observations from a re-analysis of the deposited data

How the results depend on the processing

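None of the cell cycle genes was called in any of the 14 alternative fits. Genes called over the whole table, 77 in all, numbered 78 with a pseudocount of 0.1, 10 without a filter, 100 with 1 TPM asked of all 6 libraries, 11 without variance trend and robust estimate, 30 with the replicate block, 207 with a term for replicate 1, 29 with median-of-ratios scaling, 265 without replicate 1 of both groups and 5 to 296 with 1 library left out. The cause was not tested. KIF22 lost its call without a filter, without trend, with the replicate block (adjusted p = 0.0965) and with median-of-ratios scaling (adjusted p = 0.0777). The block changed no call of the 38 genes or of CDK2. Deviations from the group means correlated at 0.184, 0.123 and 0.028 for same-numbered replicates, so the numbers were not taken to pair the libraries.

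The replication median ran from -0.15 to 0.013 with 1 library left out and was -0.16 without replicate 1 of both groups, the mitotic median from -0.35 to -0.13, and the difference of means from 0.03 to 0.14. Without MKI67, TOP2A and CCNA2, which are also high in S phase, the mitotic median was -0.25 and the difference 0.10. Of 495 refitted log2 fold changes 27 turned sign, none of them called. With 1 library left out these ran, in order, CDC6 from -0.11 to 0.13, CCNE1 from -0.060 to 0.041, TOP2A from -0.35 to 0.12, KIF11 from -0.14 to 0.043, MCM7 from -0.12 to 0.073, CENPF from -0.49 to 0.20, MCM2 from -0.0026 to 0.14, CDT1 from -0.18 to 0.27, TYMS from -0.062 to 0.13, E2F1 from -0.017 to 0.12, MCM3 from -0.21 to 0.023, CCNE2 from -0.37 to 0.036, CDK1 from -0.28 to 0.068. Without replicate 1 of both groups they were MCM2 -0.0033, CDC6 -0.21, CDT1 -0.15, TYMS -0.034, CCNE1 0.088, and with median-of-ratios scaling CCNE1 0.0086. Low TPM and 3 libraries a group limit what could be detected.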

Other observations

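A few genes of the further lists had 1 library far from the rest, and they were chosen after their values were seen. NUF2, a kinetochore protein, stood at 23.41 TPM in HFPO-TA replicate 2, against 2 and 4.82 TPM in the other HFPO-TA libraries and 1.44 to 2.45 TPM with DMSO. LIN54, the DNA-binding subunit of the DREAM complex, stood at 34.42 TPM in the same library, against 5.72 and 5.58 TPM in the other HFPO-TA libraries and 4.31 to 11.4 TPM with DMSO. ORC4, of the origin recognition complex, stood at 56.2 TPM in HFPO-TA replicate 1, against 19.1 and 24.13 TPM in the other HFPO-TA libraries and 20.16 to 25.72 TPM with DMSO. None of the 3 was called, and their means are not representative of their groups.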
